A study of Mus musculus with 12 samples.

Results

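The cells described here are the sorted reprogramming intermediates labelled Ineff, on day 6 against day 3. They were chosen by their labels and make up 4 of the 12 libraries of the series, 2 labelled d6 Ineff (written d6_Ineff) and 2 labelled d3 Ineff (d3_Ineff). On day 6 the gate took cells that carried SSEA1 and Sca1 and lacked EpCAM, and on day 3 it took cells that carried SSEA1 and Sca1 and lacked CD73. All groups were mouse cells of strain 129SV/Jae/C57BL6J, and the reprogramming medium held the additives given as dox and AA. The other 8 libraries, again 2 a group, were d6_Eff (SSEA1+ EpCAM+ Sca1-), d3_Eff (SSEA1+ CD73+ Sca1-), iPSC and MEF, the last 2 with the prefix 3/4, which is not explained. They entered the same fit, and the Eff libraries served as the only other pair of days. The sources used here do not say which factors were introduced, whether the replicates were separate cultures or animals, or how the sorted cells behaved afterwards, so p-values measure only the spread between these samples. The second gate marker changed together with the day, so the day and the gate cannot be told apart.

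Reprogramming of fibroblasts turns off a mesenchymal programme of collagens, vimentin and the transcription factors of the Twist, Prrx and Snai families. It turns on an epithelial programme of E-cadherin, claudins and keratins and, later, the pluripotency network around Nanog, Esrrb and Sall4. Sca1, encoded by Ly6a, is a GPI-anchored surface protein found on many fibroblasts, CD73 (Nt5e) is an ectonucleotidase of mesenchymal cells, EpCAM is an adhesion protein of epithelia and embryonic stem cells, and SSEA1 is a fucosylated carbohydrate epitope. A bulk library of sorted cells cannot tell fewer cells of a type from less RNA per cell.

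Gene counts were 16081124 and 22763548 in the d6_Ineff libraries and 22476813 and 22506808 in the d3_Ineff libraries, within a range of 9284060 to 22763548 over all 12. Pearson's r between the replicates, on log2 CPM over 10324 genes with a mean above 2, was 0.983 in d6_Ineff and 0.983 in d3_Ineff, 0.978 to 0.987 in the other groups except MEF, and 0.897 in MEF. Reads outside genes made up 47.2% of MEF replicate 2 and 24.1% of d6_Eff replicate 2, and 5.10% to 11.7% elsewhere. Levels below are CPM, gene counts divided by the TMM-scaled library total on the usual scale, and changes are log2 fold changes of d6_Ineff over d3_Ineff with their standard error (SE). Calls were made with edgeR's quasi-likelihood F-test over 16240 genes, where the p-value, adjusted after Benjamini and Hochberg, was under 0.05. Reads were counted without regard to strand, so values are uncertain for the genes named below whose exons overlap a gene on the other strand in the GENCODE annotation (Adh7, B4galnt3, Bop1, C1s1, Ccna2, Cdc20, Cdkn1a, Cdkn1c, Cebpd, Cldn3, Des, Dkc1, Dlk2, Dusp1, Edn1, Elf3, Eln, Esrp1, Ezh2, G6pdx, Gnl3, Grhl2, H19, Hexa, Id4, Krt8, Lin28a, Mfap4, Mt2, Nnat, Ovol2, Penk, Pfkm, Pfkp, Pou5f1, Prss8, Rbm47, Sall4, Sfrp2, Sox21, Spry1, Tagln, Tap1, Tes, Tk1 and Tmem54).

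Between day 3 and day 6, 518 genes were called higher and 199 lower in the Ineff gate, 4.42% of those tested (3.19% higher and 1.23% lower). Of the genes called higher, 465 changed at least 2-fold and 270 at least 4-fold. Of the genes called lower, 112 changed at least 2-fold and 27 at least 4-fold. The counts depended on the libraries in the fit. Both fell when d6_Eff replicate 2 alone was left out. Without MEF replicate 2 they were 1414 higher and 1182 lower, without MEF replicate 1 they were 1445 and 1191, and without both MEF replicate 2 and d6_Eff replicate 2, an alternative chosen after seeing the data, they were 1507 and 1168. Leaving out an Ineff library gave 76 to 160 higher and 17 to 23 lower, leaving out an iPSC library 336 to 341 and 93 to 95, and leaving out a d3_Eff library or d6_Eff replicate 1 gave 381 to 412 higher and 111 to 126 lower. Calls were higher in 72.2% of cases, and in 84.8% when libraries were scaled by their totals alone, which moved the median change of genes with a count by 0.12. Of 141 called genes that were members of a list or among the largest changes, 30 kept the call in all 12 refits without 1 library, 66 lost it only without an Ineff library, and 45 lost it also without another library. In these refits a group left with 1 library was assumed to vary like the others.

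The gate genes came first, since they check the labels. Ly6a had 519.8 and 551 CPM in the d6_Ineff libraries, against 639.6 and 869 CPM in the d3_Ineff libraries, and was not called (log2 fold change -0.49, SE 0.30, adjusted p = 0.424). All 4 libraries lay far above d6_Eff, with 16.2 and 8.52 CPM. Nt5e, the gene of CD73, had 21.1 and 36.9 CPM in d6_Ineff, against 2.54 and 4.12 CPM in d3_Ineff, a rise of 3.13 (SE 0.35, adjusted p = 8.58e-04). The day 3 gate excluded CD73 and the day 6 gate did not use it, and 1 of the d6_Ineff libraries reached the range of the d3_Eff libraries, which were gated on CD73 and held 41.5 and 32.9 CPM. Epcam had 27.7 and 27.8 CPM in d6_Ineff, against 5.34 and 5.07 CPM in d3_Ineff, a rise of 2.41 (SE 0.29, adjusted p = 0.00132), although the day 6 gate excluded its protein. The day 3 gate did not use EpCAM. The EpCAM+ d6_Eff libraries held 947 and 994 CPM, so the d6_Ineff level was low on that scale. Fut4 and Fut9, fucosyltransferases of SSEA1 synthesis, were not called (changes of 0.02 and -0.10). Nt5e and Epcam kept their calls in all 12 refits without 1 library.

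None of the 4 classical reprogramming factor genes was called. Pou5f1 had 70.0 and 70.4 CPM in d6_Ineff, against 72.0 and 34.3 CPM in d3_Ineff. Sox2 had 170.3 and 184 CPM in d6_Ineff, against 193 and 103 CPM in d3_Ineff. Klf4 had 182 and 234 CPM in d6_Ineff, against 208 and 122 CPM in d3_Ineff. In these 3 genes the d3_Ineff libraries enclosed the d6_Ineff libraries or overlapped them. Myc had 257 and 261 CPM in d6_Ineff, against 280.2 and 232 CPM in d3_Ineff. The log2 changes lay between 0.02 and 0.40, with SE of 0.22 to 0.38 and adjusted p of 0.564 and above, and the labels do not say whether reads of introduced copies were counted.

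**Figure D1:**
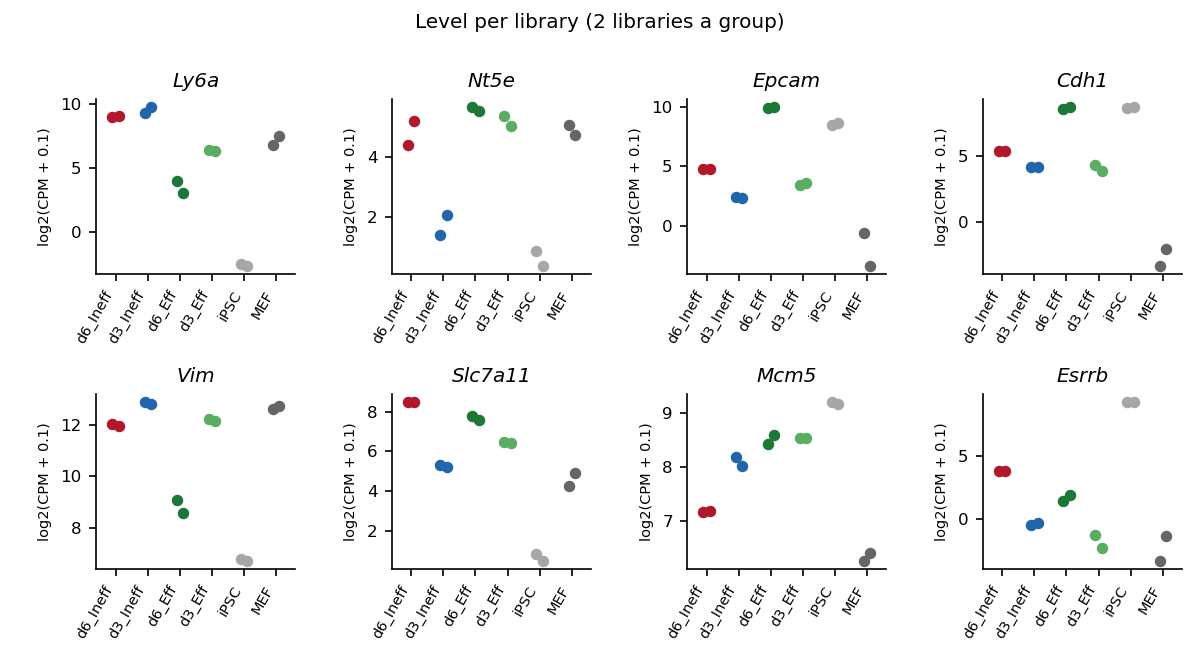
Level of 8 genes in every library, as log2(CPM + 0.1), with d6_Ineff, d3_Ineff, d6_Eff, d3_Eff, iPSC and MEF from left to right and 1 point a library. Ly6a stays high in all 4 Ineff libraries, Nt5e is lowest in d3_Ineff and iPSC, and Slc7a11 is highest in d6_Ineff, at 359.7 and 359 CPM.

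The 12 genes with the largest rises under the naming rule were Wdr86, Ly6h, Crhr2, Penk, Eln, Lhx6, Utf1, Pax7, Tac2, Cytl1, Nptx2 and Nptx1. Tac2, the neurokinin B precursor, had 111 and 127 CPM in d6_Ineff, against 3.63 and 5.07 CPM in d3_Ineff (log2 fold change 4.77, SE 0.26, adjusted p = 5.42e-05). Penk, the enkephalin precursor, had 18.9 and 13.4 CPM in d6_Ineff, against 0.131 and 0.453 CPM in d3_Ineff (5.77, SE 0.68, adjusted p = 0.00113), and 214 and 114 CPM in MEF. Ly6h, a relative of Sca1 in the Ly6 family, had 22.7 and 20.9 CPM in d6_Ineff, against 0.175 and 0.0905 CPM in d3_Ineff (7.29, SE 0.67, adjusted p = 4.78e-04). Under the naming rule, every d6_Ineff library of these 3 genes had to lie above both d3_Ineff libraries. Pax7, a paired box factor of muscle stem cells and neural crest, had 12.9 and 16.0 CPM in d6_Ineff, against 0.481 and 0.543 CPM in d3_Ineff (4.80, SE 0.39, adjusted p = 2.85e-04). Of 10 skeletal muscle markers, 6 passed the filter on low counts, Pax7 was the one called, Myod1, Myog, Myf5 and Ckm did not pass, and the summed level was 27.0 and 25.3 CPM in d6_Ineff, against 6.38 and 6.47 CPM in d3_Ineff.

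Wdr86, a WD repeat gene, had 8.34 and 7.14 CPM in d6_Ineff and no count in d3_Ineff, which makes it at least 116-fold higher against 3 counts over the group (adjusted p = 4.74e-04). Crhr2, a receptor of corticotropin-releasing peptides, had 14.0 and 15.8 CPM in d6_Ineff, against 0.394 and 0 CPM in d3_Ineff (6.18, SE 0.91, adjusted p = 0.00568), and its fitted change was 11.14 without d3_Ineff replicate 1. Nptx2 and Nptx1, secreted neuronal pentraxins, rose by 4.71 (SE 0.55, adjusted p = 0.00104) and 4.52 (SE 0.57, adjusted p = 0.00162). Eln, the gene of elastin, had 38.0 and 27.5 CPM in d6_Ineff, against 0.875 and 0.362 CPM in d3_Ineff (5.70, SE 0.93, adjusted p = 0.00746). The list was completed by Utf1, described with the pluripotency genes, by the LIM homeobox gene Lhx6 (5.59, SE 0.95, adjusted p = 0.00887) and by the secreted factor gene Cytl1 (4.74, SE 0.76, adjusted p = 0.0107). Of the 12, Eln, Lhx6 and Cytl1 lost the call in refits without an Ineff library, with adjusted p up to 0.125, 0.124 and 0.157, and the other 9 were called in all 12 refits. In d6_Eff against d3_Eff, 9 of the 12 were also called higher, and Crhr2, Cytl1 and Nptx1 were not. Over all genes tested, 4.24% were called higher in Eff, and of the 518 called higher in Ineff, 49.6% were.

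The genes with the largest falls kept d6_Ineff levels above 0. Krt19, a keratin of simple epithelia, had 40.1 and 21.9 CPM in d6_Ineff, against 162 and 159.7 CPM in d3_Ineff (log2 fold change -2.38, SE 0.33, adjusted p = 0.00326). Met, the receptor of hepatocyte growth factor, had 17.1 and 23.3 CPM in d6_Ineff, against 103 and 104 CPM in d3_Ineff (-2.36, SE 0.26, adjusted p = 7.08e-04). The naming rule required that the libraries of the 2 days did not overlap. Adh7, a retinol-oxidising dehydrogenase, fell to 0.869 and 2.23 CPM in d6_Ineff, against 33.0 and 34.8 CPM in d3_Ineff (-4.41, SE 0.50, adjusted p = 0.00228). Tes, a focal adhesion protein gene, had 10.2 and 10.4 CPM in d6_Ineff, against 50.2 and 57.6 CPM in d3_Ineff (-2.39, SE 0.23, adjusted p = 4.74e-04).

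The water channel gene Aqp1 fell by 2.33 (SE 0.30, adjusted p = 0.00257), and the Notch-related membrane protein gene Dlk2 fell by 2.73 (SE 0.37, adjusted p = 0.00255). Edn1, the endothelin 1 precursor, fell by 2.70 (SE 0.42, adjusted p = 0.00574). Other large falls were in the ubiquitin ligase gene Rnf128 (-2.43, SE 0.49, adjusted p = 0.0199), the pepsinogen gene Pga5 (-2.41, SE 0.42, adjusted p = 0.0122), Ankrd1 (-2.45, SE 0.49, adjusted p = 0.0199), a nuclear protein gene switched on by YAP, and Vcan (-2.27, SE 0.40, adjusted p = 0.0105), the gene of the proteoglycan versican. Adh7, Tes, Krt19, Met and Aqp1 were called in all 12 refits without 1 library. Dlk2 lost its call without d6_Ineff replicate 2 (adjusted p = 0.0544), and Edn1, Ankrd1, Rnf128, Pga5 and Vcan lost theirs in refits without 1 of at least 3 Ineff libraries, with adjusted p up to 0.0862, 0.197, 0.178, 0.123 and 0.129. Of the genes named here with a large fall, Krt19 was the one not called in d6_Eff against d3_Eff (-0.70, adjusted p = 0.236), and the difference between the changes was not called either (-1.67, adjusted p = 0.119). Over all genes tested, 4.87% were called lower in Eff, and of the 199 called lower in Ineff, 44.7% were.

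**Figure D2:**
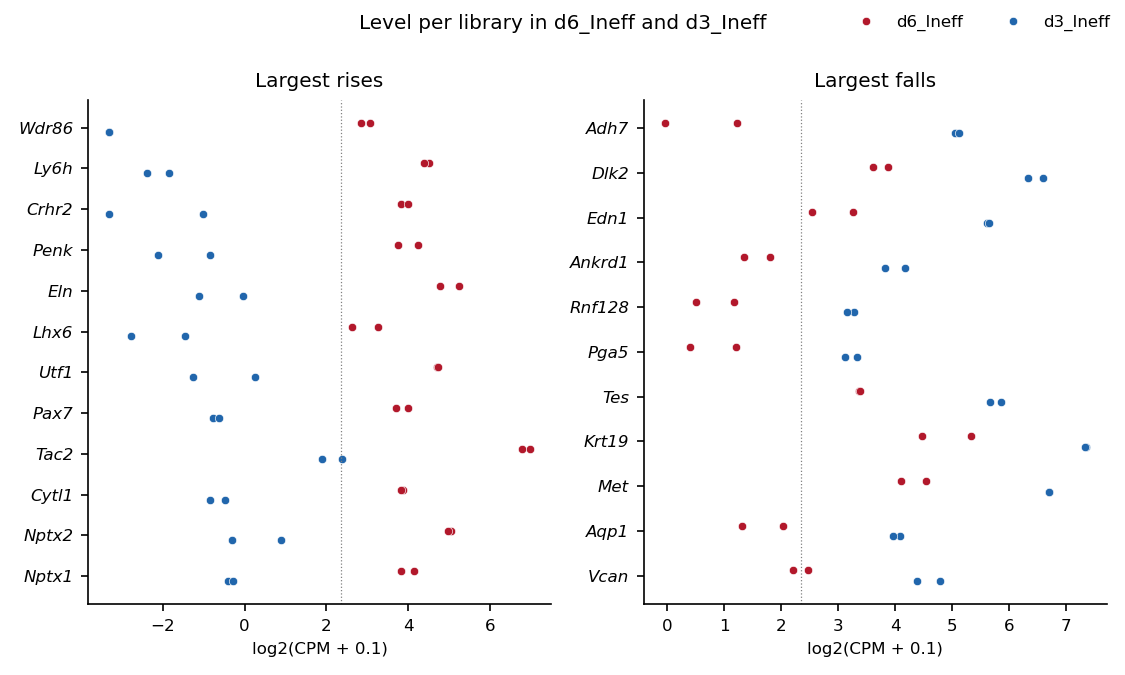
Levels in each library, as log2(CPM + 0.1), of 12 genes with the largest rises and 11 of those with the largest falls among called genes that met the naming rule, with d6_Ineff in red above d3_Ineff in blue. The dotted line marks 5 CPM, the minimum in the higher group. The naming rule required that the libraries of the 2 days do not overlap, so no row shows an overlap. The falling genes keep some expression on day 6.

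Epithelial adhesion and keratin genes held the largest number of called rises among the lists. Of 39 epithelial adhesion and keratin genes tested, 12 were called higher and 2 lower, and the median change was 1.24 (1.21 with genes at 0 in 1 group set to their bound), beside 3.19% higher, 1.23% lower and a median of 0.01 over genes with a count in some Ineff library. Spint1, a membrane-anchored inhibitor of trypsin-like serine proteases, had 95.3 and 103 CPM in d6_Ineff, against 8.48 and 8.55 CPM in d3_Ineff (3.54, SE 0.29, adjusted p = 1.51e-04). Cldn4, a tight junction claudin, had 19.1 and 21.7 CPM in d6_Ineff, against 2.32 and 2.17 CPM in d3_Ineff (3.18, SE 0.34, adjusted p = 7.08e-04). Spint2, a second inhibitor of the family, had 141 and 126 CPM in d6_Ineff, against 32.3 and 41.0 CPM in d3_Ineff (1.86, SE 0.22, adjusted p = 9.77e-04). In these 3 genes both d6_Ineff libraries lay above both d3_Ineff libraries, beside 28.5% of all genes tested. They were named for the smallest adjusted p among the called rises of the list at 5 CPM or more, and kept their calls in all 12 refits.

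Cdh1, the gene of E-cadherin, had 43.4 and 42.6 CPM in d6_Ineff, against 18.5 and 18.1 CPM in d3_Ineff (1.24, SE 0.23, adjusted p = 0.0149), and lost the call in each of the 4 refits without an Ineff library (adjusted p up to 0.172). The other rises were St14 (matriptase, the protease that the Spint proteins inhibit), Cldn3, Cldn6, Cldn7, Cldn9, and the epithelial transcription factor genes Grhl2, Elf3 and Ehf, with changes of 1.42 in Ehf to 3.48 in Cldn9. Several stayed at low levels: Cldn7 had 0.985 and 0.479 CPM in d6_Ineff, against 0 and 0.136 CPM in d3_Ineff, and Grhl2 had 2.14 and 2.47 CPM in d6_Ineff, against 0.131 and 0.362 CPM in d3_Ineff. Krt19 and the desmosomal gene Pkp2 (-0.95, SE 0.20, adjusted p = 0.0231) went the other way. Krt8, a keratin of simple epithelia, was not called (15.3 and 17.1 CPM in d6_Ineff, against 11.9 and 11.7 CPM in d3_Ineff). Over the 12 refits without 1 library the list gave 3 to 15 calls higher and 1 to 3 lower. A set of 10 defining epithelial markers, with Krt19 among them, summed to 155 and 138 CPM in d6_Ineff, against 207 and 206 CPM in d3_Ineff, and to 2139 and 2292 CPM in d6_Eff. Krt19 held most of the d3_Ineff sum, so the sum mainly shows its fall. Of the 10 markers, 4 were called higher and 1, Krt19, lower, beside 3.19% and 1.23% over all genes tested. The median change of the 10 was 0.85.

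The hexamer CAGGTG, an E-box read by the Snai and Zeb repressors of epithelial genes, was looked for on both strands (reverse complement CACCTG) of the promoters in a RefSeq table for GRCm38.p6, each 250 bases before to 50 bases after the gene start. It was present in 15 of the 21 epithelial list genes with an entry (71.4%), in 5 of the 7 of these called higher, in 86 of 375 promoters of all genes called higher (22.9%) and in 2076 of 11371 promoters of tested genes (18.3%). The promoters of Epcam (chr17:87635729-87636028, plus strand) and Cldn4 (chr5:134946885-134947184, minus strand) each held 2 copies, in capitals below, and are shown because both genes rose. Epcam is a gate gene and not among the 21.
Epcam: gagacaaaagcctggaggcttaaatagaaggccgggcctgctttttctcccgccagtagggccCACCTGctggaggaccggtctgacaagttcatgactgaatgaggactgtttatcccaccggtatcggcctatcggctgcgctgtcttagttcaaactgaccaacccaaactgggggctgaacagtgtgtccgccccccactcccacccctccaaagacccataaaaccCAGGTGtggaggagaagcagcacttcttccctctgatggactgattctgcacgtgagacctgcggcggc
Cldn4: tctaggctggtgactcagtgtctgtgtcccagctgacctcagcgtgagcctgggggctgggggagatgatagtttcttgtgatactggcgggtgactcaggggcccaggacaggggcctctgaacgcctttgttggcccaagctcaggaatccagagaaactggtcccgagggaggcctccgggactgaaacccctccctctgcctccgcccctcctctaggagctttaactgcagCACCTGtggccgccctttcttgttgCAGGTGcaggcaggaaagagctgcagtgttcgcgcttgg
In Epcam the copies began 187 and 19 bases before the start, and in Cldn4 14 bases before and 11 after it. The match is a description of the sequence and says nothing of what was bound in these cells.

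Pluripotency genes were mostly low, and a minority rose, beside 3.19% called higher and 1.23% lower over all genes tested. Of 40 tested, 10 were called higher and none lower, with 0 to 1 lower in the 12 refits without 1 library and 4 to 17 higher. The median change was 0.88, and 0.56 with the 8 genes at 0 in 1 group set to their bound. Utf1, a chromatin protein of undifferentiated embryonic cells, had 26.1 and 26.3 CPM in d6_Ineff, against 1.09 and 0.317 CPM in d3_Ineff (5.19, SE 0.40, adjusted p = 1.91e-04). Esrrb, an orphan nuclear receptor of the pluripotency network, had 13.4 and 13.5 CPM in d6_Ineff, against 0.612 and 0.679 CPM in d3_Ineff (4.37, SE 0.39, adjusted p = 2.85e-04). Tet1, a 5-methylcytosine dioxygenase, had 24.7 and 25.1 CPM in d6_Ineff, against 2.41 and 2.76 CPM in d3_Ineff (3.27, SE 0.22, adjusted p = 4.20e-05). All 3 were called in all 12 refits, and their d6_Ineff libraries were within a few percent of each other. The iPSC libraries held 541 and 567 CPM of Utf1, 593 and 604 CPM of Esrrb and 352 and 332 CPM of Tet1, so the d6_Ineff levels were far below the end point.

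Esrrb reached 2.49 and 3.64 CPM in d6_Eff, less than in d6_Ineff. The difference between its Ineff and Eff changes was 0.56 and not called (adjusted p = 0.881). The other genes called higher were Sall4, Tfcp2l1, Tdgf1, Nr5a2, Fbxo15, Gdf3 and Mycn, with changes of 1.48 in Fbxo15 to 4.09 in Tdgf1. Tfcp2l1, a partner of Esrrb in naive pluripotency, had 18.5 and 16.4 CPM in d6_Ineff, against 4.72 and 2.31 CPM in d3_Ineff (2.31, SE 0.39, adjusted p = 0.00899), and lost its call in 3 refits without an Ineff library. Sall4 stayed at 1.68 and 2.55 CPM in d6_Ineff, against 0.306 and 0 CPM in d3_Ineff. Nanog had 4.23 and 5.70 CPM in d6_Ineff, against 1.79 and 2.40 CPM in d3_Ineff (1.25, adjusted p = 0.0939), and was not called. Dppa5a and Zfp42, late markers, were below 2 CPM in all 4 Ineff libraries and not called. The trophoblast and germ cell factor gene Tfap2c rose by 3.57 (SE 0.43, adjusted p = 0.00118) and was called in all 12 refits. Of 21 germline genes tested, Piwil2 was the one called (2.54, adjusted p = 0.0498), and it lost the call in 10 of the 12 refits.

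A minority of the matrix genes rose, beside 3.19% called higher and 1.23% lower over all genes tested. Of 35 fibrillar matrix and matricellular genes, 8 were called higher and 1 lower (Vcan), with a median of 0.24, and the 12 refits without 1 library gave 0 to 15 higher and 0 to 3 lower. Col3a1, a fibrillar collagen, had 110.4 and 98.2 CPM in d6_Ineff, against 17.9 and 15.7 CPM in d3_Ineff (2.63, SE 0.53, adjusted p = 0.0206). Thbs2, a matricellular thrombospondin, had 48.9 and 43.4 CPM in d6_Ineff, against 11.9 and 12.0 CPM in d3_Ineff (1.95, SE 0.38, adjusted p = 0.0188). Mfap2, a microfibril protein, had 14.0 and 12.9 CPM in d6_Ineff, against 2.71 and 2.35 CPM in d3_Ineff (2.41, SE 0.37, adjusted p = 0.00508). In all 3 both d6_Ineff libraries lay above both d3_Ineff libraries, beside 28.5% of all genes tested. For Eln above, the naming rule required this. Col3a1, Thbs2 and Mfap2 lost their calls in refits without an Ineff library (adjusted p up to 0.224, 0.191 and 0.0934). Lum, Postn, Ogn and Mfap4 completed the 8, with d6_Ineff levels of 0.957 CPM to 16.5 CPM. In MEF, Col3a1 stood at 4415 and 1259 CPM.

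The most abundant collagens were not called: Col1a1 had 261 and 209 CPM in d6_Ineff, against 91.0 and 57.1 CPM in d3_Ineff (1.66, adjusted p = 0.165), and Col1a2 changed by 0.28 (adjusted p = 0.813). Serpine2, a protease inhibitor of the matrix, had 133 and 146 CPM in d6_Ineff, against 38.5 and 41.2 CPM in d3_Ineff (1.81, SE 0.20, adjusted p = 8.81e-04), called in all 12 refits. Of 16 basement membrane genes, 2 were called higher, Col18a1 (2.48, adjusted p = 0.0389) among them, and none lower, with a list median of 0.80, 0 to 9 calls higher and 0 to 1 lower over the 12 refits. Of 37 mesenchymal transcription factor genes, Osr1 was the one called (0 and 0 CPM in d6_Ineff, against 0.437 and 0.543 CPM in d3_Ineff). The list median was -0.05, which became 0.07 when libraries were scaled by their totals alone. Over all genes tested, 3.19% were called higher and 1.23% lower, so 1 call in a list of this size is near that share. Prrx1, a homeobox factor of limb mesenchyme, had 111 and 138 CPM in d6_Ineff, against 211 and 220.5 CPM in d3_Ineff (-0.79, adjusted p = 0.093). Of 21 fibroblast surface and cytoskeleton genes, S100a4, a calcium-binding protein of motile cells, was the one called (14.2 and 8.93 CPM in d6_Ineff, against 42.5 and 67.3 CPM in d3_Ineff, adjusted p = 0.0247). Vim, the intermediate filament vimentin, had 4222 and 3980.1 CPM in d6_Ineff, against 7706 and 7386 CPM in d3_Ineff, and missed the threshold (-0.88, SE 0.22, adjusted p = 0.0506). Over the 12 refits the transcription factor list gave 0 to 3 calls higher and 0 to 4 lower, and the surface and cytoskeleton list 0 to 4 and 0 to 6. Osr1 and Col18a1 lost their calls in 10 of the 12 refits (adjusted p up to 0.223 and 0.325), and S100a4 without any of the 4 Ineff libraries (up to 0.213).

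The fibroblast markers, a list of 10, with Vim among them, summed to 5360.2 and 5019.6 CPM in d6_Ineff, against 8462 and 7997 CPM in d3_Ineff. Vim held most of each sum, so the sum mainly shows its change. Of the 10 markers, 8 had a fitted change above 0 and 2 below, with a median of 0.94. Over genes with a count in some Ineff library, 49.1% were below 0. Of the 10, 3 were called higher (Col3a1, Lum and Postn) and none lower, beside 3.19% higher and 1.23% lower over all genes tested. Smooth muscle markers summed to 1807 and 1746 CPM in d6_Ineff, against 4195 and 4444 CPM in d3_Ineff. Their part in the matrix result was not tested. In the longer list of 14 smooth muscle and contractile genes, Tpm1, a tropomyosin, had 506 and 484 CPM in d6_Ineff, against 1268 and 1207 CPM in d3_Ineff (-1.32, SE 0.20, adjusted p = 0.00552), and Actg2, an enteric smooth muscle actin, had 339 and 382 CPM in d6_Ineff, against 729 and 765 CPM in d3_Ineff (-1.05, SE 0.20, adjusted p = 0.0151). Des, the gene of desmin, rose (2.09, adjusted p = 0.0437). Acta2 and Tagln had changes of -1.31 and -1.39 and were not called. The list median was -0.54, and the 12 refits gave 0 to 2 members higher and 0 to 7 lower.

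**Figure D3:**
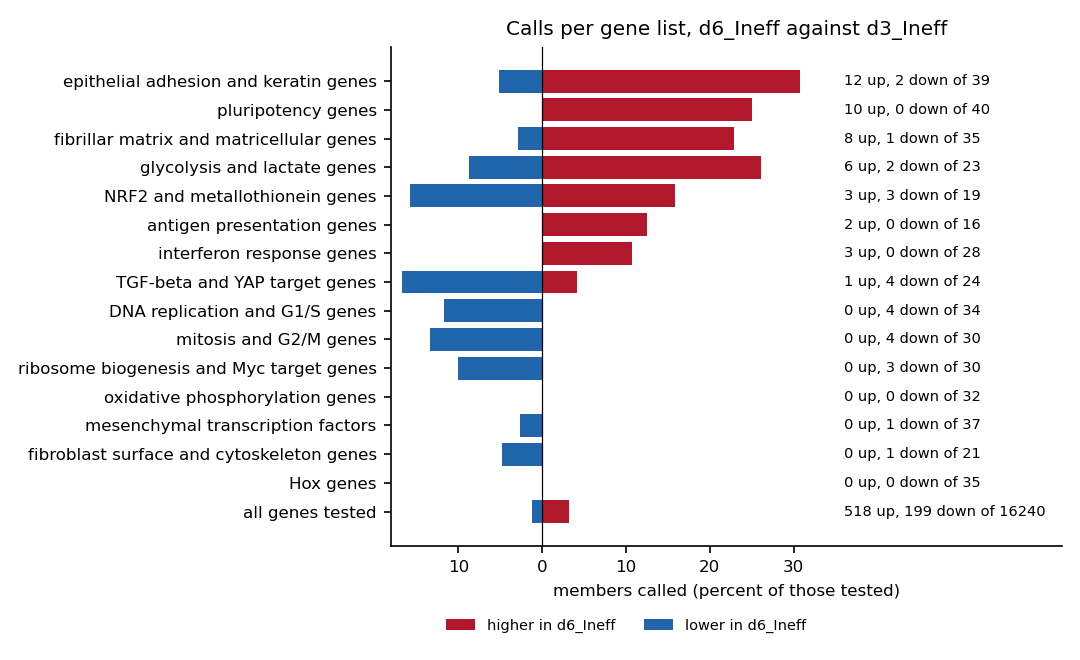
Share of each gene list called higher (red, to the right) or lower (blue, to the left) in d6_Ineff against d3_Ineff, in percent of members tested, with the counts beside each bar and all 16240 tested genes in the bottom row. Of the lists shown, the epithelial, pluripotency, glycolysis and matrix lists hold the largest shares of rises, and the replication, mitosis and ribosome lists hold falls and no rise.

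In the lists of DNA replication, mitosis and ribosome production, 3 or 4 genes each were called lower and none higher, beside 1.23% lower over all genes tested. Of 34 DNA replication and G1/S genes, 4 were called lower and 32 had a fitted change below 0, with a median of -0.49. Of 30 mitosis and G2/M genes, 4 were called lower and 28 had a fitted change below 0, with a median of -0.53. Of 30 ribosome biogenesis and Myc target genes, 3 were called lower and all 30 had a fitted change below 0, with a median of -0.62. Both d6_Ineff libraries lay below both d3_Ineff libraries in 24 of the 34 replication genes, beside 27.4% of all genes tested. Over genes with a count in some Ineff library, 49.1% were below 0. Without MEF replicate 2 the calls were 17, 16 and 21 lower and none higher, over all 12 refits without 1 library they ranged over 0 to 17, 0 to 17 and 0 to 23 lower, and scaling by library totals alone gave 2, 2 and 0 lower with medians of -0.37, -0.41 and -0.50. The medians in d6_Eff against d3_Eff were -0.02, -0.04 and 0.00, and the difference between the Ineff and Eff changes was called in none of their members, beside 1.39% of all genes tested.

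Mcm5, a subunit of the replicative helicase, had 144 and 146 CPM in d6_Ineff, against 290.1 and 259.8 CPM in d3_Ineff (-0.92, SE 0.16, adjusted p = 0.00924). Rrm2, the regulated subunit of ribonucleotide reductase, had 267 and 263 CPM in d6_Ineff, against 515 and 551 CPM in d3_Ineff (-1.01, SE 0.17, adjusted p = 0.00924). Cdc6, a licensing factor, had 17.9 and 18.9 CPM in d6_Ineff, against 38.5 and 38.3 CPM in d3_Ineff (-1.06, SE 0.20, adjusted p = 0.014). The day 6 libraries of these 3 genes held about the same level as each other, and Tk1, a thymidine kinase, was the other call (-0.76). Mcm5, Rrm2 and Cdc6 lost their calls in the 4 refits without an Ineff library, with adjusted p up to 0.0985, 0.101 and 0.144.

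Ccnb2, a mitotic cyclin, had 106 and 104 CPM in d6_Ineff, against 175 and 191 CPM in d3_Ineff (-0.80, SE 0.18, adjusted p = 0.0338). Cdc20, an activator of the anaphase-promoting complex, had 245 and 203 CPM in d6_Ineff, against 418 and 381 CPM in d3_Ineff (-0.84, SE 0.18, adjusted p = 0.0264). Ccna2, the cyclin of S and G2 phase, fell by 0.80 (adjusted p = 0.0257) and the spindle kinase gene Aurka by 0.67 (adjusted p = 0.0422). Mki67, the Ki-67 antigen, was not called, with 58.1 and 59.7 CPM in d6_Ineff, against 55.3 and 45.1 CPM in d3_Ineff. Ccnd1 and Cdkn1a were likewise not called, with changes of -0.03 and -0.04. The 4 mitotic genes called lower were lost in 6 to 10 of the 12 refits, with adjusted p up to 0.247.

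The pentamer CCAAT, the site of the factor NF-Y found in many cell cycle promoters, was searched on both strands (reverse complement ATTGG) of the same RefSeq promoters. It was present in 19 of 24 mitosis list promoters (79.2%), in all 3 of those called lower that had an entry (Aurka, Ccnb2 and Cdc20), in 75 of 160 promoters of all genes called lower (46.9%) and in 38.6% of the 11371 promoters of tested genes. The promoters of Ccnb2 (chr9:70421505-70421804, minus strand) and Cdc20 (chr4:118437294-118437593, minus strand) are shown, with CCAAT in capitals, because they hold 3 and 2 copies upstream of the start.
Ccnb2: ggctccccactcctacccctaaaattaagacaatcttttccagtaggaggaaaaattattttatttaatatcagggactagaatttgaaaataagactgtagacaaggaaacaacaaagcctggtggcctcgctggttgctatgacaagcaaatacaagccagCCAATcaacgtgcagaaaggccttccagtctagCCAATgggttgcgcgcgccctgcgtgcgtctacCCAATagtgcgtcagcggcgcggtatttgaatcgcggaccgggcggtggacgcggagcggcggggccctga
Cdc20: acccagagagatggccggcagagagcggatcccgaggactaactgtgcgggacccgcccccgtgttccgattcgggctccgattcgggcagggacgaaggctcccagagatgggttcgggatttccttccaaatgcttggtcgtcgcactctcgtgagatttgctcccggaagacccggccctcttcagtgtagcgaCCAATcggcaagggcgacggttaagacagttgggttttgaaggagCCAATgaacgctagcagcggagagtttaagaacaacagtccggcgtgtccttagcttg
The copies began 87, 54 and 21 bases before the start in Ccnb2, and 53 and 8 bases before it in Cdc20. No binding was measured here.

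Gnl3, nucleostemin, had 73.1 and 73.8 CPM in d6_Ineff, against 125 and 145 CPM in d3_Ineff (-0.88, SE 0.19, adjusted p = 0.026). Bop1, a factor of 60S subunit assembly, had 63.8 and 61.1 CPM in d6_Ineff, against 110.2 and 107 CPM in d3_Ineff (-0.80, SE 0.19, adjusted p = 0.039). Dkc1, the pseudouridine synthase dyskerin, had 153 and 137 CPM in d6_Ineff, against 210.0 and 276 CPM in d3_Ineff (-0.75, SE 0.18, adjusted p = 0.0437). These 3 were the ones called in the ribosome list, and they lost the call in 7 to 10 of the 12 refits, with adjusted p up to 0.391. None of 32 oxidative phosphorylation genes was called, with a median of -0.20 (-0.07 with library totals alone). Both d6_Ineff libraries lay below both d3_Ineff libraries in 17 of them, beside 27.4% of all genes tested. None of 29 cholesterol and fatty acid synthesis genes was called either, with a median of -0.26 and 0 to 5 called lower in the refits.

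**Figure D4:**
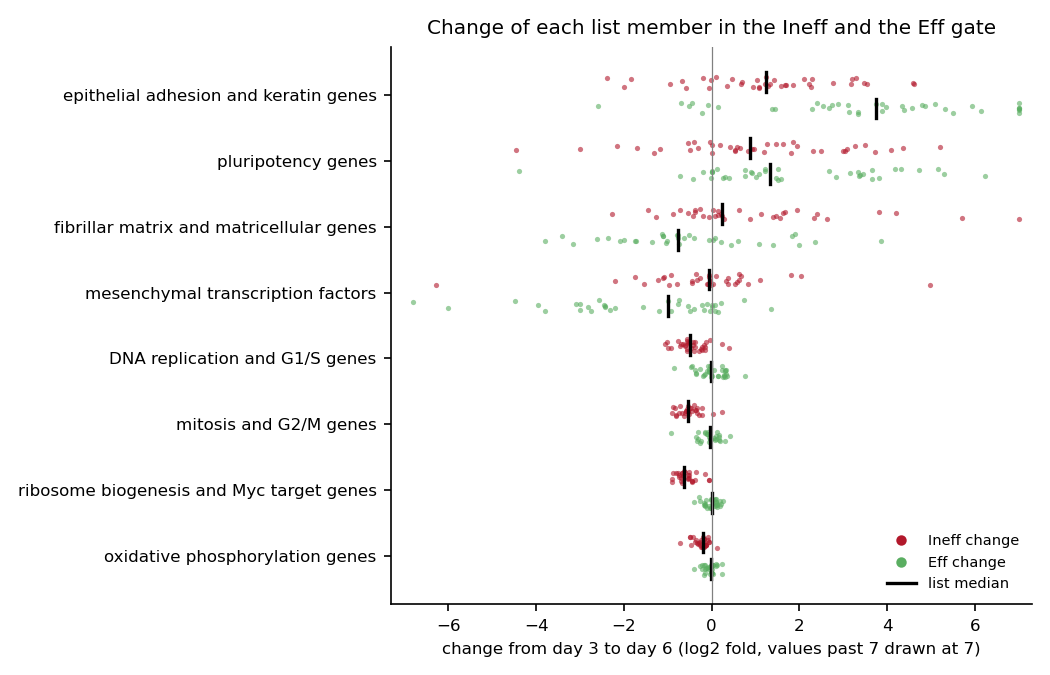
Log2 change from day 3 to day 6 of each member of 8 lists in the Ineff gate (red) above the Eff gate (green), with the list median as a black bar. The replication, mitosis and ribosome lists have medians of -0.49, -0.53 and -0.62 in Ineff and of -0.02, -0.04 and 0.00 in Eff, and the mesenchymal factor list has medians of -0.05 in Ineff and -0.99 in Eff.

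Among p53 targets and cell cycle inhibitors, 3 of 30 were called higher and none lower, beside 3.19% higher and 1.23% lower over all genes tested. Sesn1, a stress-induced regulator of mTORC1, had 45.9 and 46.6 CPM in d6_Ineff, against 20.3 and 17.8 CPM in d3_Ineff (1.28, SE 0.24, adjusted p = 0.0139). Cdkn1c, the imprinted inhibitor p57, had 267 and 271 CPM in d6_Ineff, against 138 and 147 CPM in d3_Ineff (0.92, SE 0.19, adjusted p = 0.0248). Btg2, an antiproliferative gene, rose by 0.63 (adjusted p = 0.049). Cdkn2a, which codes for p16 and p19ARF, had 306 and 227 CPM in d6_Ineff, against 199 and 214 CPM in d3_Ineff, and was not called (0.36, adjusted p = 0.425). Sesn1 and Cdkn1c lost their calls in the 4 refits without an Ineff library (adjusted p up to 0.188 and 0.199), Btg2 in 10 of the 12, and the list gave 0 to 5 calls higher and 0 to 2 lower.

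Slc7a11, the cystine transporter that feeds glutathione synthesis, had 359.7 and 359 CPM in d6_Ineff, against 39.4 and 36.9 CPM in d3_Ineff (3.24, SE 0.23, adjusted p = 5.42e-05). Its heavy chain partner Slc3a2 had 371 and 402 CPM in d6_Ineff, against 224 and 234 CPM in d3_Ineff (0.76, SE 0.19, adjusted p = 0.0464). Slc7a5, another light chain that pairs with Slc3a2, went down, with 56.8 and 50.1 CPM in d6_Ineff, against 126 and 106 CPM in d3_Ineff (-1.12, SE 0.21, adjusted p = 0.0156). Mthfd2, a mitochondrial folate enzyme, had 16.7 and 16.7 CPM in d6_Ineff, against 44.3 and 49.2 CPM in d3_Ineff (-1.48, SE 0.18, adjusted p = 0.0016). Psat1, an enzyme of serine synthesis, fell by 1.04 (adjusted p = 0.0429). In the list of 30 ATF4 and unfolded protein response genes these were all the calls, 2 higher and 3 lower. Over all genes tested, 3.19% were called higher and 1.23% lower. The 12 refits without 1 library gave 1 to 4 higher and 1 to 8 lower.

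The list of 19 NRF2 and metallothionein genes had 3 calls in each direction, beside 3.19% higher and 1.23% lower over all genes tested, with 2 to 3 higher and 0 to 4 lower over the refits. Gstm1, a glutathione transferase with closely similar relatives in its family, had 137 and 157 CPM in d6_Ineff, against 34.2 and 38.1 CPM in d3_Ineff (2.03, SE 0.20, adjusted p = 4.74e-04). Nqo1, a quinone reductase, rose by 1.11 (adjusted p = 0.0493), and Slc7a11 is counted here too. Gsta4, another glutathione transferase, had 916 and 715 CPM in d6_Ineff, against 1412 and 1857 CPM in d3_Ineff (-1.003, SE 0.23, adjusted p = 0.0321). The glucose-6-phosphate dehydrogenase gene G6pdx fell by 0.79 (adjusted p = 0.0403) and the metallothionein gene Mt2 by 0.75 (adjusted p = 0.0437). Slc7a11, Gstm1 and Mthfd2 were called in all 12 refits, Slc7a5 was lost only without an Ineff library (adjusted p up to 0.147), and Slc3a2, Psat1, Nqo1, Gsta4, G6pdx and Mt2 were lost in 8 to 10 of the 12 refits, with adjusted p up to 0.391.

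Of 23 glycolysis and lactate genes tested, 6 were called higher and 2 lower, beside 3.19% and 1.23% over all genes tested, and the median was -0.09 (0.03 with library totals alone, where 7 were called higher and none lower). Aldoc, the brain-type aldolase, had 41.1 and 50.3 CPM in d6_Ineff, against 4.20 and 6.29 CPM in d3_Ineff (3.12, SE 0.31, adjusted p = 4.74e-04). Ldhb, the heart-type lactate dehydrogenase subunit, had 99.0 and 88.1 CPM in d6_Ineff, against 33.4 and 34.2 CPM in d3_Ineff (1.47, SE 0.23, adjusted p = 0.00526). Eno3, the muscle enolase, had 79.3 and 79.1 CPM in d6_Ineff, against 32.6 and 37.1 CPM in d3_Ineff (1.18, SE 0.21, adjusted p = 0.0108). The ubiquitous enolase Eno1, which has a near-identical copy in the mouse genome, was higher in CPM on both days, with 640.0 and 564 CPM in d6_Ineff, against 1081 and 1005 CPM in d3_Ineff (-0.79, SE 0.19, adjusted p = 0.0403). Of the phosphofructokinase genes, the muscle form Pfkm rose by 1.31 (adjusted p = 0.0277) and the platelet form Pfkp fell by 1.36 (adjusted p = 0.0303). Slc2a3, a glucose transporter, and Slc16a3, a lactate transporter, rose by 0.93 and 2.18. Aldoc was called in all 12 refits, Ldhb and Eno3 were lost only without an Ineff library (adjusted p up to 0.0794 and 0.131), and Eno1, Pfkm and Pfkp were lost in 8 to 10, with adjusted p up to 0.261. The 12 refits gave 1 to 8 members higher and 0 to 5 lower.

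Genes of interferon response and antigen presentation had a few rises and no fall. Of 28 interferon response genes, 3 were called higher, and of 16 antigen presentation genes, 2, with list medians of 0.39 and 1.02, beside 3.19% higher over all genes tested. Bst2, the membrane protein tetherin, had 459.7 and 372 CPM in d6_Ineff, against 165 and 213 CPM in d3_Ineff (1.14, SE 0.27, adjusted p = 0.0374). Ifi27 had 31.2 and 29.7 CPM in d6_Ineff, against 6.95 and 7.60 CPM in d3_Ineff (2.06, SE 0.36, adjusted p = 0.00929). Irf9, the DNA-binding part of the ISGF3 complex, had 15.6 and 12.4 CPM in d6_Ineff, against 3.45 and 4.12 CPM in d3_Ineff (1.88, SE 0.34, adjusted p = 0.0115). H2-K1, a class I heavy chain with closely similar paralogs, rose by 1.15 (SE 0.18, adjusted p = 0.0066), and the peptide transporter gene Tap1 by 1.08 (adjusted p = 0.0348). All 5 lost the call in refits without an Ineff library (adjusted p up to 0.116 for Ifi27, 0.134 for Irf9, 0.102 for H2-K1, 0.252 for Bst2 and 0.283 for Tap1), and the lists gave 0 to 3 and 0 to 2 calls higher and 0 to 1 lower in each. Bst2 and Tap1 also lost their calls in refits without an Eff or an iPSC library. Leukocyte markers summed to 8.40 and 9.05 CPM in d6_Ineff, against 4.94 and 5.57 CPM in d3_Ineff. Of the 12, 8 passed the filter, none was called, and Ptprc, Cd52, Tyrobp and Adgre1 did not pass.

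Secreted and signalling genes changed in both directions, beside 3.19% called higher and 1.23% lower over all genes tested. Of 28 inflammation and chemokine genes, Cxcl12, Ptges, C1s1 and Serping1 were called higher and Ccl2 lower. Cxcl12, a chemokine of stromal cells, had 23.2 and 22.97 CPM in d6_Ineff, against 5.68 and 6.02 CPM in d3_Ineff (1.98, SE 0.37, adjusted p = 0.014). C1s1, a complement protease, had 44.5 and 49.0 CPM in d6_Ineff, against 9.53 and 9.55 CPM in d3_Ineff (2.29, SE 0.38, adjusted p = 0.00846). Ccl2, a monocyte chemokine, had 18.6 and 12.9 CPM in d6_Ineff, against 49.1 and 78.1 CPM in d3_Ineff (-2.01, SE 0.36, adjusted p = 0.0104). Of 24 TGF-beta and YAP target genes, Ankrd1, Edn1, Axl and F3 fell and Tgfbi, a secreted matrix protein induced by TGF-beta, rose (66.9 and 82.6 CPM in d6_Ineff, against 23.5 and 24.8 CPM in d3_Ineff, 1.63, adjusted p = 0.0158). F3, tissue factor, fell by 1.23 (adjusted p = 0.0131). The median of that list was -0.15, and the 12 refits gave 0 to 6 calls in each direction, beside 0 to 4 higher and 0 to 5 lower in the inflammation list. Cxcl12, C1s1, Ccl2, Tgfbi and F3 lost their calls only in refits without an Ineff library, with adjusted p up to 0.153, 0.122, 0.124, 0.168 and 0.157.

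Of 31 FGF and receptor tyrosine kinase genes, 4 were called higher and 2 lower, with 0 to 10 higher and 1 to 2 lower over the 12 refits without 1 library. Spry1 and Spry4, feedback inhibitors of receptor tyrosine kinase signalling, rose by 1.75 (SE 0.29, adjusted p = 0.00813) and 0.84 (SE 0.15, adjusted p = 0.0122), with Spry4 at 234 and 225 CPM in d6_Ineff, against 127 and 129 CPM in d3_Ineff. The receptor genes Kit and Erbb3 rose, with no more than 1.01 CPM in d3_Ineff, the growth factor gene Fgf7 fell (-2.09, adjusted p = 0.0363), and so did Met. Among 28 Wnt pathway genes, the antagonist gene Sfrp2 fell (-1.74, adjusted p = 0.0429), and Dkk3, a secreted Dickkopf protein, rose to 47.9 and 61.1 CPM in d6_Ineff, against 3.45 and 1.72 CPM in d3_Ineff (4.39, SE 0.59, adjusted p = 0.00255). Among 19 BMP response genes, Id4, a BMP-responsive inhibitor of helix-loop-helix factors, rose by 0.97 (adjusted p = 0.0219), and the BMP antagonist gene Grem1 fell by 1.66 (adjusted p = 0.0378). With 1 call in each direction, the Wnt and BMP lists were near the shares over all genes tested (3.19% higher and 1.23% lower). Met was called in all 12 refits, Dkk3 in 11 of them (adjusted p = 0.0671 without d3_Ineff replicate 2), Spry1, Spry4 and Id4 were lost only without an Ineff library (adjusted p up to 0.105, 0.132 and 0.21), and the others were lost in more refits.

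Of 26 IGF-binding protein and imprinted genes, Igfbp2, Cdkn1c, Peg3 and Nnat were called higher and Slc38a4 lower, with 1 to 7 higher and 0 to 1 lower over the 12 refits. Igfbp2, an IGF carrier, had 23.8 and 20.8 CPM in d6_Ineff, against 2.01 and 2.99 CPM in d3_Ineff (3.15, SE 0.31, adjusted p = 4.74e-04), and was called in all 12. Peg3, an imprinted zinc finger gene, had 34.7 and 40.6 CPM in d6_Ineff, against 13.2 and 12.2 CPM in d3_Ineff (1.57, SE 0.29, adjusted p = 0.0137). H19, a maternally expressed noncoding RNA, had 10271 and 10591 CPM in d6_Ineff, against 15223 and 13232 CPM in d3_Ineff, and was not called (-0.45, adjusted p = 0.435). Over all genes tested, 3.19% were called higher and 1.23% lower. Of 34 histone and chromatin genes, Tet1 rose and Ezh2, the Polycomb methyltransferase, fell by 0.71 (adjusted p = 0.0426), lost in 10 of the 12 refits, with 1 to 7 members higher and 0 to 3 lower. None of 35 Hox genes was called, at most 1 lower in any of the 12 refits, and their median change was 0.10 (0.07 with genes at 0 in 1 group set to their bound).

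Early response and neuronal genes changed in both directions, beside 3.19% called higher and 1.23% lower over all genes tested. Of 23 immediate early and AP-1 genes, Egr1 (2.13, adjusted p = 0.0403) and Btg2 rose, and Fosl2 (-1.27, adjusted p = 0.0108), Dusp1 (-0.95, adjusted p = 0.0389) and Klf6 (-1.02, adjusted p = 0.0352) fell. Egr1 had 72.5 and 123 CPM in d6_Ineff, against 21.8 and 23.04 CPM in d3_Ineff. Of 18 neuronal and neuropeptide genes, Penk rose, and Trh, the thyrotropin-releasing hormone precursor (-1.16, SE 0.18, adjusted p = 0.00521), Stmn2 (-1.06, SE 0.19, adjusted p = 0.0105) and Tubb3 (-1.29, SE 0.26, adjusted p = 0.0219), neuronal microtubule genes, fell. Egr1, Btg2, Dusp1 and Klf6 lost their calls in 10 of the 12 refits (adjusted p up to 0.306), Fosl2 without any of the 4 Ineff libraries (up to 0.134), and Trh, Stmn2 and Tubb3 without 1 of 3 Ineff libraries (up to 0.0756, 0.129 and 0.176). The early response list gave 0 to 4 higher and 0 to 3 lower and the neuronal list 1 to 4 and 0 to 4. Sox9, a factor of chondrocytes and of several epithelia, had 31.1 and 28.3 CPM in d6_Ineff, against 2.80 and 3.44 CPM in d3_Ineff (3.25, SE 0.39, adjusted p = 0.00128), called in all 12 refits. Of 7 chondrocyte markers, 5 passed the filter and Sox9 and Comp were called, and the summed level was 46.4 and 39.0 CPM in d6_Ineff, against 23.05 and 17.9 CPM in d3_Ineff. Endothelial markers summed to 170.3 and 174 CPM in d6_Ineff, against 167 and 162 CPM in d3_Ineff, with Pecam1 and Cldn5 called higher at no more than 4.17 CPM. Smaller lists gave 1 call each: Egln3 (0.91) of 20 hypoxia genes, Hexa (1.02) of 28 lysosome and autophagy genes, and Sox21 (1.94) of 15 early lineage and neural factor genes, where Egln3 and Hexa stood above 70 CPM and Sox21 at 6.72 and 5.74 CPM in d6_Ineff. Over all genes tested, 3.19% were called higher, so 1 call in a list of this size is near the background. The hypoxia and lysosome lists gave 0 to 5 calls higher in the 12 refits and the endothelial markers 0 to 6. Ly6d and Cd59a rose beside Ly6h among 11 other Ly6 family genes, all of which had a change above 0, with a median of 1.12 when genes at 0 in 1 group were set to their bound.

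The Eff gate over the same days gave 1479 calls, 9.11% of the genes tested, with 688 higher (4.24%) and 791 lower (4.87%). These contrasts share no library. Of the 518 genes called higher in Ineff, 257 (49.6%) were called higher in Eff, which is 37.4% of the 688, and 10 were called lower in Eff. Of the 199 called lower in Ineff, 89 (44.7%) were called lower in Eff, which is 11.3% of the 791, and 1 was called higher. The difference between the changes was tested itself, as (d6_Ineff - d3_Ineff) - (d6_Eff - d3_Eff). It was called in 225 genes, 1.39% of those tested, with the Ineff change above the Eff change in 177 (1.09%) and below it in 48 (0.296%). Without MEF replicate 2 the counts were 890 and 407, without d6_Eff replicate 2 they were 7 and 10, without both they were 702 and 230, and over all 12 refits they ranged over 3 to 934 and 7 to 415.

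The genes with an Ineff change above the Eff change included mesenchymal genes that fell in Eff and were not called in Ineff. Vim changed by -0.88 in Ineff and -3.37 in Eff, a difference of 2.49 (adjusted p = 0.00663), and had 540.4 and 376 CPM in d6_Eff, against 4877 and 4586 CPM in d3_Eff. Cdh2, the gene of N-cadherin, had 18.0 and 18.9 CPM in d6_Ineff, against 41.6 and 33.0 CPM in d3_Ineff, and 1.38 and 0.117 CPM in d6_Eff, against 42.8 and 24.7 CPM in d3_Eff (difference 4.37, SE 0.80, adjusted p = 0.0256). Among the mesenchymal transcription factors the difference was called in Twist1 (2.65), Prrx1 (2.29), Ebf1 (2.72) and Cebpd (1.52), among others. In d6_Eff against d3_Eff, 13 of the 37 were called lower, beside 4.87% of all genes tested, and the list median was -0.99, beside -0.05 in Ineff. By the rule for naming genes, Dkk3 (5.47, SE 0.80, adjusted p = 0.0122), the transglutaminase gene Tgm3 (4.55, SE 0.81, adjusted p = 0.0286), the neurotransmitter transporter gene Slc6a17 (4.37, SE 0.84, adjusted p = 0.0329), the endothelial phosphatase gene Ptprb and Wdr86 completed the largest differences above 0. Dkk3 was the one of these with a called rise in Ineff beside an Eff change of -1.08 that was not called. Ptprb had no count in d6_Eff, so its fitted difference depends on the prior count. Of the 35 matrix genes, 2 were called higher and 10 lower in Eff, and of the 24 TGF-beta and YAP target genes, none was called higher and 8 lower. Over all genes tested, these shares were 4.24% higher and 4.87% lower. Imprinted genes H19 (2.08), Ndn (1.86), Cdkn1c (1.66) and Nnat (1.58) also had a called difference, as did Slc7a11 (1.99, adjusted p = 0.0132) and the gate gene Nt5e (2.75, adjusted p = 0.0194). CD73, the protein of Nt5e, was gated in opposite directions on day 3, so the Nt5e difference cannot be told apart from the sort.

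Epithelial genes were among the 48 with an Ineff change below the Eff change. Of the 39 in the list, 27 were called higher and none lower in Eff, with a median of 3.74, and the difference was called below 0 in 8, Cdh1, Krt8, Krt18, Cldn6, Esrp1, Ovol2, Prss8 and Pkp1, and above 0 in none. Over all genes tested, 4.24% were called higher and 4.87% lower in Eff. The difference was called below 0 in 0.296% of them and above 0 in 1.09%. Cdh1 had 394 and 431 CPM in d6_Eff, against 20.3 and 14.5 CPM in d3_Eff, a change of 4.57 beside 1.24 in Ineff (difference -3.33, SE 0.33, adjusted p = 0.00231). Epcam, gated in opposite directions on day 6, had a difference of -3.98 (SE 0.40, adjusted p = 0.00231). That difference cannot be told apart from the sort, which no refit removes. Krt8 rose by 5.49 in Eff and changed by 0.46 in Ineff (difference -5.04, adjusted p = 0.00156). Esrp1, a splicing regulator of epithelia, had 0.579 and 0.279 CPM in d6_Ineff, against 0.656 and 2.31 CPM in d3_Ineff, and 114 and 129 CPM in d6_Eff. The difference was not called in Cldn4 (-1.69, adjusted p = 0.115) or in Spint1 (-0.80, adjusted p = 0.421). The other large differences below 0 were in genes with fewer than 1 CPM in all 4 Ineff libraries: the signalling adaptor gene Grb7 (41.0 and 48.6 CPM in d6_Eff, no count in d3_Eff), the glycosyltransferase gene B4galnt3 (9.58 and 8.57 CPM in d6_Eff, against 0.173 and 0 CPM in d3_Eff), the RNA-binding protein gene Rbm47 (5.26 and 6.70 CPM in d6_Eff, against 0.0434 and 0 CPM in d3_Eff) and the membrane protein gene Tmem54 (10.6 and 6.87 CPM in d6_Eff, no count in d3_Eff). Among pluripotency genes, Nanog (-2.39), Lin28a (-5.89) and Nr0b1 (-1.48) had called differences, all below 0, and the metallothionein gene Mt2 had one of -2.12. Of the 52 list members and named genes with a called difference, Cdh1, Epcam, Esrp1, Krt8, Krt18 and Mt2 were called in all 12 refits without 1 library, 28 were lost only without an Ineff or Eff library and 18 also without another.

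**Figure D5:**
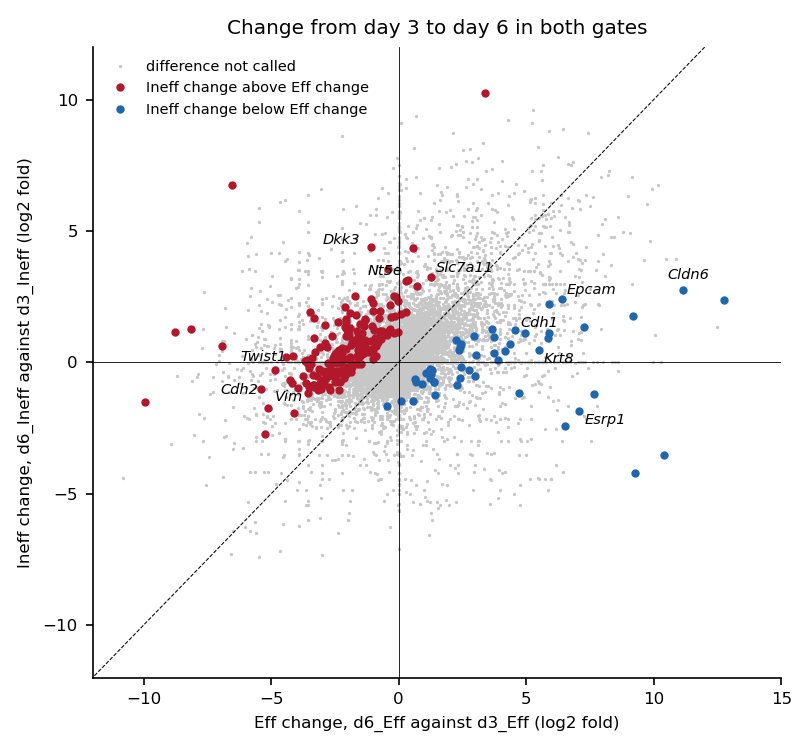
Log2 change from day 3 to day 6 of each tested gene in the Eff gate (horizontal) and the Ineff gate (vertical), with genes whose difference was called in red (177, Ineff change above Eff change) and blue (48, below). The red genes include Vim and Twist1, which fell in Eff and were not called in Ineff, and the blue ones include Epcam, Cdh1 and Krt8, which rose by 6.39, 4.57 and 5.49 in Eff. EpCAM was gated in opposite directions on day 6.

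The iPSC and MEF libraries were used to sort the tested genes, since neither enters the Ineff contrast itself. Of 8557 genes called between them (52.7%), 4221 (26.0%) were higher and 4336 (26.7%) lower in iPSC. Of the 4221 genes higher in iPSC, 241 (5.71%) rose and 72 (1.71%) fell in Ineff, and 447 (10.6%) rose and 73 (1.73%) fell in Eff. Of the 4336 genes lower in iPSC, 146 (3.37%) rose and 79 (1.82%) fell in Ineff, while 90 (2.08%) rose and 610 (14.1%) fell in Eff. The median change of these 4336 genes was 0.00 in Ineff and -0.32 in Eff. Of the 177 genes whose Ineff change lay above the Eff change, 128 were lower in iPSC than in MEF, and of the 48 with it below, 37 were higher in iPSC.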

How the data were processed

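RNA was measured in sorted mouse cells as polyadenylated, strand-marked libraries (NEBNext Ultra Directional kit, per the labels' protocols). The authors deposited raw counts per gene for each library, and the submitters' processing notes name STAR 2.3.0, Picard 1.100, HTSeq 0.6.0 and the mouse build mm9; no source used here names the annotation. The names of the deposited tables say that strand was not used in counting, so reads of overlapping genes on opposite strands cannot be told apart. Of 37583 genes, 87.4% were matched to a symbol in the GENCODE annotation given for a later build, which also gave exon overlaps. Summary lines for reads outside genes were left out of library sizes and tests.

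Genes were kept by edgeR's filterByExpr on the 6 groups (16240 tested), scaled by TMM and fitted over all 12 libraries with 1 term a group in edgeR 4.0.16 (R 4.3.3), with glmQLFit and glmQLFTest, 6 residual degrees of freedom and a prior count of 0.125. The SE of a change is its size divided by the square root of the F statistic. P-values were adjusted by Benjamini-Hochberg over all tested genes. In a test on simulated data with this design, 16% of 100 genes changed 2-fold and 74% of 100 genes changed 4-fold were called, with 2 false calls. A count of 0 in a group was bounded by 3 counts over the group, which covers counting error only.

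The members and the 37 gene lists and 11 marker lists were chosen with earlier results of these data known. Named genes were the 12 called genes with the largest rise and the 12 with the largest fall whose higher group held 5 CPM or more in every library and did not overlap the lower one, the 6 largest differences in each direction between the Ineff and Eff changes, up to 3 called members per list and direction, the gate genes and the factors. Other list members are named to complete a count, and a few genes the rule picks are not reported here. Alternatives were RLE scaling, library totals alone, DESeq2 1.42.0, no filter, the 4 Ineff libraries alone, a replicate term, glmTreat, leaving out each library, and leaving out 2 libraries together.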

Additional observations from a re-analysis of the deposited data

Results flagged for a closer look

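The Ineff change from day 3 to day 6 differed from the Eff change, by the test of the difference itself, in 12 named genes. It lay above the Eff change, on the log2 scale, by 6.86 in Wdr86, 8.45 in Ptprb, 5.47 in Dkk3, 4.55 in Tgm3, 4.37 in Cdh2 and 4.37 in Slc6a17. It lay below the Eff change in Tmem54 (-13.92), Grb7 (-10.38), B4galnt3 (-8.93), Esrp1 (-8.91), Rbm47 (-8.86) and Cldn6 (-8.38). Wdr86, Ptprb, Tmem54 and Grb7 had no count in at least 1 of the 4 groups, and their fitted differences depend on the prior count. Esrp1 was the one of the 12 that kept its call in all 12 refits without 1 library. In d6_Eff replicate 2, which enters each of these differences, 24.1% of reads lay outside genes.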

How the results depend on the processing

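No value called as reported, among those followed, changed sign under an alternative. With library totals alone the medians of the mesenchymal transcription factor, glycolysis and neuronal lists became 0.07, 0.03 and 0.03, against -0.05, -0.09 and -0.06 as reported, and the changes of Fut4, Fut9, Klf4, Myc, Pou5f1, Rbm47 and Sox2, none of them called in Ineff, had either sign over the alternatives. Genes called higher and lower in d6_Ineff against d3_Ineff, 518 and 199 as reported, numbered 1062 and 572 with DESeq2, 985 and 377 with no filter on low counts, 1680 and 1251 with only the 4 Ineff libraries, 1507 and 1168 without MEF replicate 2 and d6_Eff replicate 2 together (chosen after seeing the data), and 227 and 37 by glmTreat against a fold change of 1.5. Library totals alone left 92 called lower. Leaving out 1 library gave 76 to 1445 higher and 17 to 1191 lower. The difference between the Ineff and Eff changes, 177 above and 48 below as reported, gave 597 and 236 with DESeq2, 652 and 180 with no filter, 104 and 30 with library totals alone, 702 and 230 without the 2 libraries, and 3 to 934 and 7 to 415 without 1 library. The cause was not tested. Of 136 values followed, 111 kept their side of the threshold with library totals alone, 134 with RLE scaling and 50 to 58 in the refits without an Ineff library, where fewer samples remain. Calls were higher in 65.0% with DESeq2, 54.5% without MEF replicate 2 and 57.3% with the 4 Ineff libraries, against 72.2% as reported.

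Replicate numbers are shared between groups, but nothing says that a number marks a shared origin, and the deviations of same-numbered libraries from their group means, over 10324 genes, had a correlation of -0.10 between d6_Ineff and d3_Ineff, 0.21 between d6_Eff and d3_Eff, -0.18 between d6_Ineff and d6_Eff and 0.16 between d3_Ineff and d3_Eff. Over all pairs of groups it ran from -0.32 (d6_Ineff with d3_Eff) to 0.57 (d3_Ineff with MEF). With the replicate number as a block, 483 genes were called higher and 166 lower, and the difference was called above 0 in 170 and below 0 in 44. With 2 libraries a group, small changes stay under the threshold: the simulated data gave 16% recovery at 2-fold. An unadjusted p under 0.05 was reached by 2966 genes.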

Other observations

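Further marker lists are given as values, beside 3.19% called higher and 1.23% lower over all genes tested. Neural and glial markers summed to 164 and 148 CPM in d6_Ineff, against 266 and 325 CPM in d3_Ineff, with Stmn2 and Tubb3 called lower among 9 tested, and Sox10, a gene of neural crest and glia, not passing the filter. Pluripotent cell markers summed to 168 and 175 CPM in d6_Ineff, against 104 and 102 CPM in d3_Ineff, with 4 of 10 called higher (2 to 6 over the 12 refits without 1 library), and to 8343 and 8796 CPM in iPSC. Keratinocyte markers summed to 8.52 and 5.86 CPM in d6_Ineff, against 5.77 and 7.196 CPM in d3_Ineff, so the days overlapped, and 2 of 9 passed the filter. Adipocyte markers summed to 32.2 and 25.3 CPM in d6_Ineff, against 16.1 and 14.8 CPM in d3_Ineff, with Cebpa called higher and the defining genes Adipoq, Plin1 and Cidec not passing the filter. Of 20 matrix protease and inhibitor genes, Serpine2 was the one called, with 1 to 6 called higher and 0 to 1 lower over those refits. Of 16 stratified epithelium and trophoblast genes tested, Tfap2c was the one called.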
